A study of Homo sapiens with 6 samples.

Results

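The nuclear pore and nuclear transport receptor genes were followed in JHH-4, an established human liver cancer line (hepatocellular carcinoma). Members were the rows of a gene count table whose name starts with NUP or IPO and a digit, or with KPNA, KPNB, XPO or TNPO. This rule found 44 of 14034 rows, namely 21 nucleoporin genes and 23 transport receptor genes, and it used no measured value. The tested cells overexpressed hsa-miR-885-5p from a plasmid that carries the primary microRNA, and 3 libraries were made from them. The other 3 libraries came from control JHH-4 cells labelled WT. Both groups grew in the same serum-containing medium, and neither the time after delivery nor what the control cells received was stated, so effects of the plasmid and of the microRNA cannot be told apart. Since the design text names the libraries within each group as technical replicates, a p-value here reflects the scatter of such libraries and no other variation.

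Total counts ran from 46382314 to 56409821 per library. MIR885, the microRNA gene, and its host gene ATP2B2 were not analysed here, and the level of the microRNA was not checked. Replicates differed by more than sampling noise, and on the second principal component control library 3 stood apart from the other libraries. Without it, 24 of the 44 members were lower and 4 higher with miR-885-5p, as many as with it. Among hepatocyte markers SERPINA1 had a row, and of 5 epithelial markers the keratin genes KRT8, KRT18 and KRT19 had one. ALB, APOA1, APOB, TTR and HNF4A, which define hepatocytes, were without a row in the table used here. Of the listed markers of other cells, 1 of 4 for leukocytes, 3 of 4 for fibroblasts and 1 of 3 for endothelium had a row, with no group mean above 5.34 CPM (counts scaled to library size). Of these 5, LUM and PECAM1 were higher, averaging 4.63 and 1.51 CPM with miR-885-5p against 2.86 and 0.719 CPM in controls. CD14 was lower, at 0.786 CPM with miR-885-5p and 1.41 CPM in controls, and the part of other cells in the results was not tested.

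Nuclear pores are protein channels through the nuclear envelope, built from nucleoporins that form stacked rings, a central channel of disordered repeats, and filaments on both faces. Importins bind cargo in the cytoplasm and release it in the nucleus when they meet Ran bound to GTP, and exportins take up cargo together with Ran-GTP in the nucleus and release it outside. Importin alpha adaptors read the classical nuclear localization signal and ride on importin beta, while most other receptors of the beta family bind their cargo directly. In proliferating cells pores are taken apart at mitosis and built again, and several of these proteins then act at chromosomes or the spindle.

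A primary microRNA is processed to a hairpin with a 5p and a 3p arm. Both mature arms are shown because their seeds, bases 2 to 8 in capitals, define the matches searched further on (RefSeq, GRCh38.p14, chromosome 3, minus strand, 10394531 to 10394552 for the 5p arm and 10394499 to 10394520 for the 3p arm).
hsa-miR-885-5p: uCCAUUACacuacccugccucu
hsa-miR-885-3p: aGGCAGCGggguguaguggaua

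With miR-885-5p most of these genes were lower or not past the threshold, and few were higher. Of 44 members 24 fell, 4 rose and 16 did not pass an adjusted p of 0.05 (edgeR quasi-likelihood test, Benjamini-Hochberg over all 14034 rows). Members lower made up 54.5% of the list against 26.5% of all rows, and members higher 9.09% against 26.3% of all rows. The median log2 fold change, miR-885-5p over control, was -0.17 over the members and -0.00 over all rows, and 32 members were below 0. Nucleoporins held 14 of the 24 falls and 0 of the rises by edgeR, DESeq2 and limma-voom, and also 0 at an unadjusted edgeR p of 0.05, with a median log2 fold change of -0.26 over 21 genes. Receptors held 10 falls and all 4 rises, with a median of -0.08 over 23 genes. Set against the control mean, the median member stood at -0.17, -0.18 and -0.16 on the log2 scale in miR-885-5p libraries 1 to 3. Control libraries stayed within 0.0108 of 0 on the same measure. Changes were small: with a fold of 1.2 as the null, 6 of 44 members were lower and 1 higher, while 11.6% and 11.9% of all rows were. By this test the share of members lower was close to that of all rows. Those 6 were NUP62CL, KPNA2, NUP50, KPNB1, NUP205 and NUP188, and the member higher was KPNA1.

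**Figure D1:**
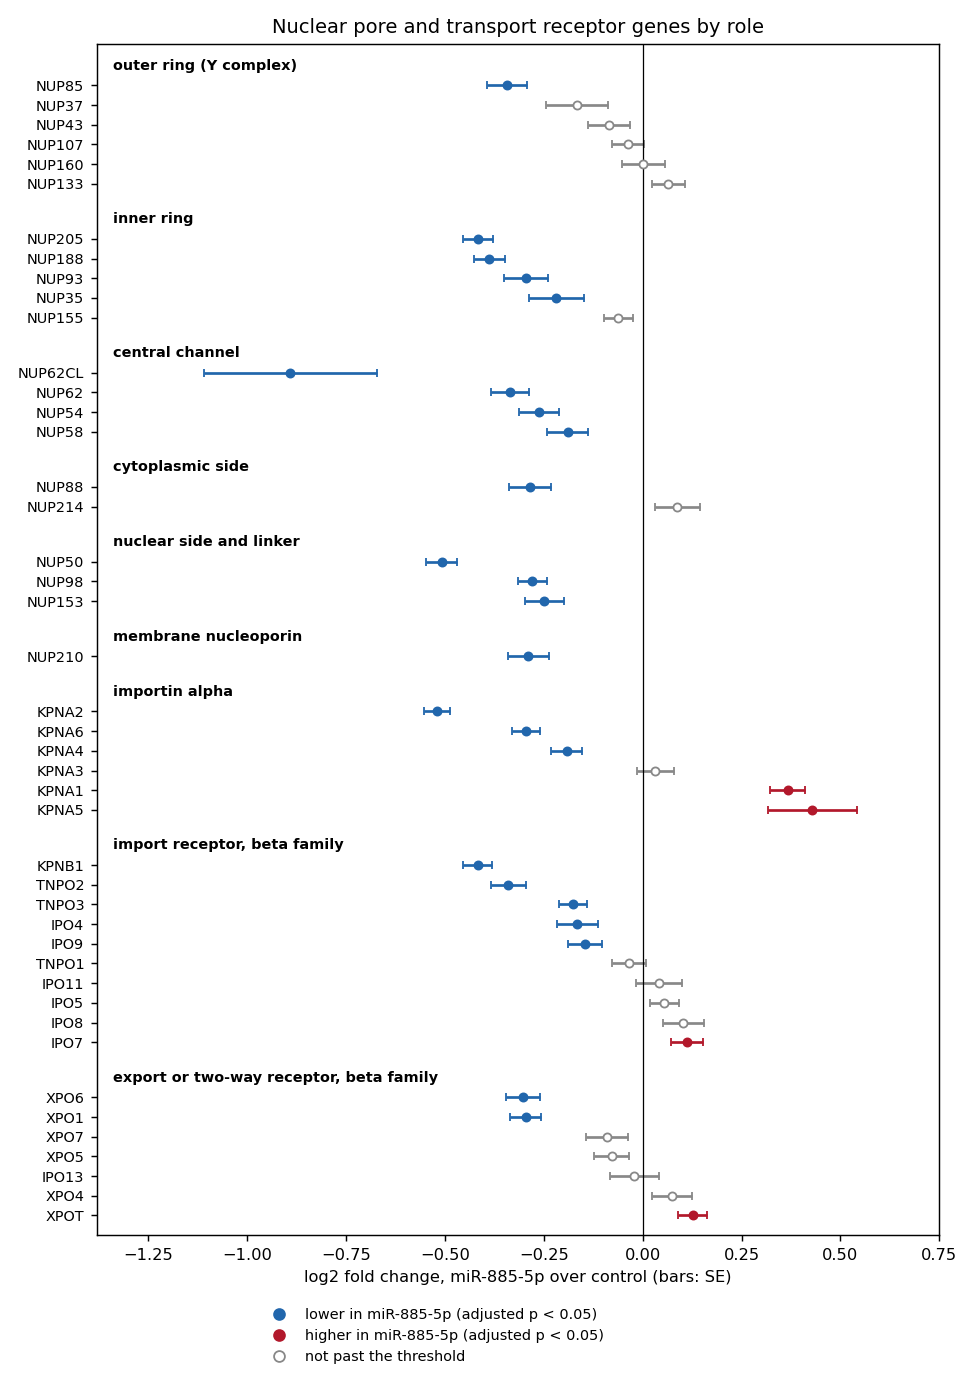
Log2 fold change of each of the 44 members, miR-885-5p over control (x axis, bars give the SE), grouped by role; filled blue points are lower and filled red points higher at an adjusted p under 0.05, open points are not past it. Nucleoporins of the inner ring, channel and nuclear side lie left of 0, while KPNA5 at 0.43 and KPNA1 at 0.37 lie furthest right.

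The libraries of the groups did not overlap, with every miR-885-5p library below every control library, for 26 members (59.1%) against 30.3% of all rows. They lay apart in the other direction for 6 members, where 30.2% of all rows did so. Summed over the members, the TMM-scaled CPM came to 5747 ± 22.2 in miR-885-5p libraries and 6585 ± 47.9 in control libraries (SD, n = 3 each). In bulk RNA fewer cells in a given state and less RNA per cell cannot be told apart. The plot of cumulative distributions shows the nucleoporin curve left of the curve of all rows over most of its range.

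**Figure D2:**
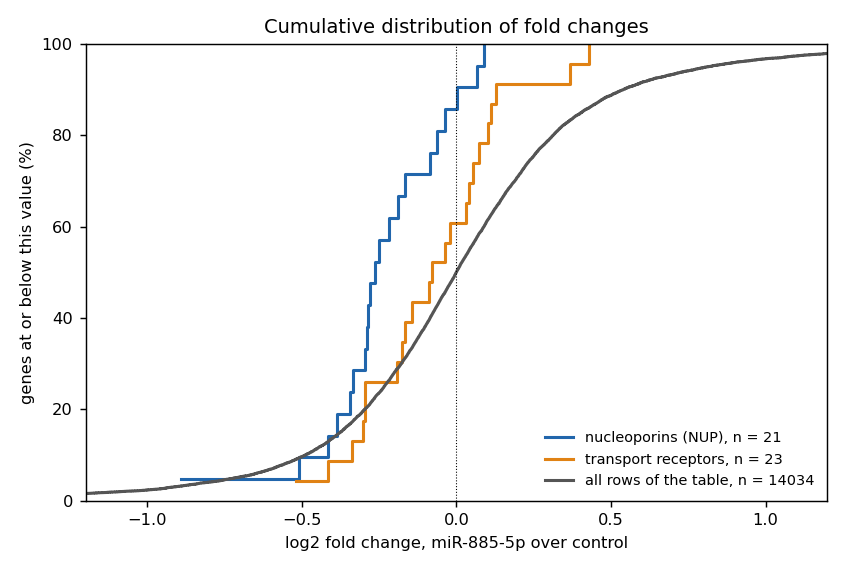
Cumulative share of genes (y axis, %) at or below each log2 fold change, miR-885-5p over control (x axis), for 21 nucleoporin genes, 23 transport receptor genes and all 14034 rows; the axis is cropped at 1.2 on either side. The nucleoporin curve reaches its upper end at 0.09, and the receptor curve ends at 0.43.

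The outer ring, or Y complex, is the scaffold that lies against both membranes of the envelope. Most of its 6 genes under the naming rule were not past the threshold. NUP85, a Y-complex scaffold subunit (chromosome 17, 75205659 to 75235758, GRCh38), had 87.3, 83.9 and 79.7 CPM in miR-885-5p libraries 1 to 3, against 103, 103 and 112 CPM in control libraries 1 to 3. All miR-885-5p libraries lay below all control libraries. NUP85 fell by 0.34 on the log2 scale (SE 0.05, adjusted p = 3.09e-04). It was the called gene of this class, 1 of 6 (16.7% lower, against 26.5% of all rows). NUP107 and NUP133, in the stem of the Y, and NUP160, in an arm, had log2 fold changes of -0.04, 0.07 and 0.00, with adjusted p of 0.454, 0.219 and 0.990. NUP43 stood at -0.09 and NUP37, a small subunit on NUP160, at -0.17 (adjusted p = 0.0998). Without control library 2 NUP37 passed the threshold (adjusted p = 0.0331). The SE of these fold changes ran from 0.04 to 0.08. Outside the rule, the Y-complex genes SEH1L, SEC13 and AHCTF1 were lower, at -0.20, -0.14 and -0.32 (adjusted p = 0.00314, 0.00786 and 1.01e-04). NUP98, a member that also encodes the Y-complex subunit NUP96, was lower as well.

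The inner ring, which lies against the curved membrane and carries the channel, was lower in 4 of its 5 genes (80%, against 26.5% of all rows). NUP205, a large solenoid scaffold (chromosome 7, 135557919 to 135648757), had 133, 132 and 129.8 CPM in miR-885-5p libraries, against 178, 169 and 179 CPM in control libraries. The groups were well apart, with a spread of 1.49 CPM (SD) among miR-885-5p libraries and of 5.28 CPM among controls. Its log2 fold change was -0.42 (SE 0.04, adjusted p = 1.29e-05). NUP188, the related solenoid, fell by 0.39 and NUP93, the linker that holds both in place, by 0.29 on the log2 scale. NUP35, a membrane-binding subunit, fell by 0.22 (adjusted p = 0.0244), a call that was lost without miR-885-5p library 1 or 2, without control library 1 or 2, under library-total scaling and with the replicate number as a block, where adjusted p ran from 0.0564 to 0.0949. NUP155, which also touches the membrane, was at -0.06 (adjusted p = 0.190), although its miR-885-5p libraries lay below all controls.

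In the central channel, where phenylalanine-glycine repeats form the permeability barrier, all 4 listed genes were lower (100%, against 26.5% of all rows). NUP62, the hub of the channel trimer (chromosome 19, 49906825 to 49929763, minus strand), had 200.4, 208 and 202 CPM in miR-885-5p libraries and 258, 272 and 240.2 CPM in control libraries. Each miR-885-5p library was below each control, and control library 3 was the lowest control. The fall of NUP62 was 0.34 on the log2 scale (SE 0.05, adjusted p = 2.48e-04). Its partners NUP54 and NUP58 fell by 0.26 and 0.19; NUP58 lost its call when control library 1 was left out (adjusted p = 0.0566). NUP62CL, a gene related to the C-terminal part of NUP62 whose role at the pore is less clear, was the weakest member, with 1.04, 0.920 and 0.994 CPM in miR-885-5p libraries and 1.49, 2.10 and 1.89 CPM in control libraries. These levels rest on 49, 53 and 52 reads against 71, 99 and 93 reads. Both the fall of NUP62CL, 0.89 on the log2 scale, and its SE of 0.22 were the largest among the members (adjusted p = 0.00673).

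Of the 6 member nucleoporins of the pore's faces and membrane 5 were lower as well, where 26.5% of all rows were. NUP50, a mobile cofactor of importin-mediated import at the nuclear side (chromosome 22, 45163841 to 45188015), had 78.0, 81.5 and 79.8 CPM in miR-885-5p libraries, against 114, 116 and 111 CPM in control libraries. The replicates of each group lay close together and far from the other group. NUP50 fell by 0.51 (SE 0.04, adjusted p = 5.13e-06), the largest fall among member nucleoporins above 5 CPM. NUP153, a nucleoporin of the nuclear basket, fell by 0.25. NUP98 fell by 0.28; its gene encodes a precursor that is cut into the linker NUP98 and the Y-complex subunit NUP96, so 1 count stands for both proteins. On the cytoplasmic side NUP88 had 71.9, 72.3 and 77.6 CPM in miR-885-5p libraries and 90.6, 95.3 and 84.5 CPM in control libraries. It fell by 0.29 (SE 0.05, adjusted p = 0.00152), with no overlap of the groups, while its partner NUP214 was at 0.09 with overlapping libraries (adjusted p = 0.223). NUP210, a membrane-spanning nucleoporin, had 77.9, 83.6 and 73.4 CPM in miR-885-5p libraries and 93.9, 94.96 and 98.2 CPM in control libraries. It too was lower in every miR-885-5p library, and fell by 0.29 on the log2 scale (SE 0.05, adjusted p = 0.00108).

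**Figure D3:**
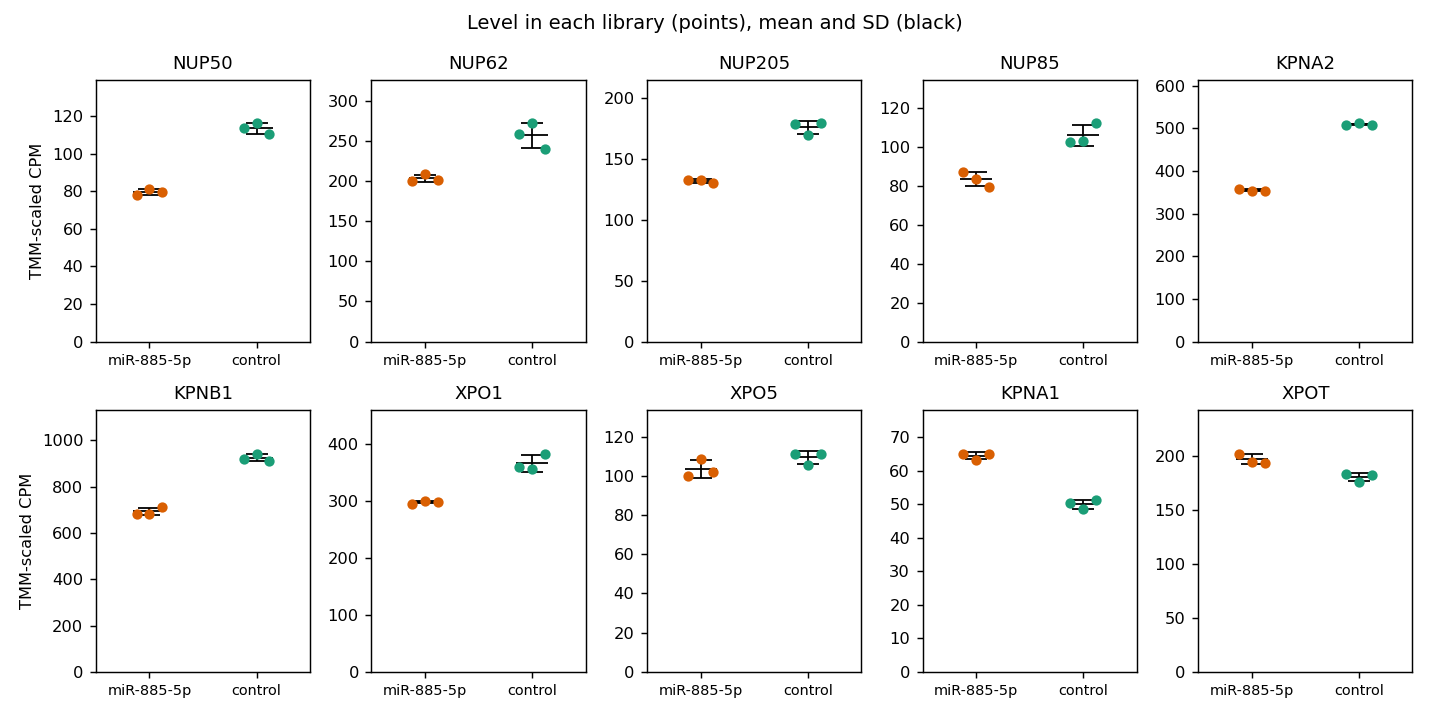
TMM-scaled CPM (y axes, from 0) in each library (points) with the mean and SD (black) for 10 members, miR-885-5p libraries left of control libraries in each panel. The groups do not overlap for NUP50, NUP62, NUP205, NUP85, KPNA2, KPNB1 and XPO1, which are lower, nor for KPNA1 and XPOT, which are higher, and they overlap for XPO5.

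Importin alpha genes moved in both directions. KPNA2, the adaptor most tied to proliferating cells (chromosome 17, 68035519 to 68046842), had 358, 353 and 354 CPM in miR-885-5p libraries, against 508, 512 and 508 CPM in control libraries. The SD was 2.82 CPM among miR-885-5p libraries and 2.14 CPM among controls, so the gap was far wider than the spread. KPNA2 fell by 0.52 (SE 0.03, adjusted p = 1.40e-06), or by 30.3%. KPNA6 and KPNA4 fell by 0.29 and 0.19, and KPNA3, the closest relative of KPNA4, was at 0.03 (adjusted p = 0.599).

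KPNA1, which encodes importin alpha 5, went the other way, with 65.1, 63.2 and 65.0 CPM in miR-885-5p libraries and 50.3, 48.6 and 51.1 CPM in control libraries. Every miR-885-5p library was above every control, and KPNA1 rose by 0.37 (SE 0.04, adjusted p = 9.38e-05). KPNA5, its close relative, was weak, with 14.1, 10.7 and 13.9 CPM in miR-885-5p libraries and 9.12, 9.88 and 9.74 CPM in control libraries. Even the lowest miR-885-5p library, library 2, exceeded the controls, and the rise was 0.43 (SE 0.11, adjusted p = 0.00946).

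The adaptors can be set side by side per transcript length with the FPKM values that the authors deposited. By that measure KPNA2 made up 79.1, 78.7 and 78.4% of the summed importin alpha level in miR-885-5p libraries and 83.7, 83.7 and 83.6% in control libraries. The share of KPNA1 was 4.84 ± 0.0950% with miR-885-5p and 2.80 ± 0.151% in controls, and that of KPNA3 was 5.43 ± 0.168% and 3.93 ± 0.0777% (SD, n = 3 each). KPNA6 held 6.16 ± 0.0416% and 5.60 ± 0.0153%, although its own level fell, since the sum fell more. In CPM the 6 genes together came to 653 ± 4.54 in miR-885-5p libraries and 821 ± 3.67 in control libraries.

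**Figure D4:**
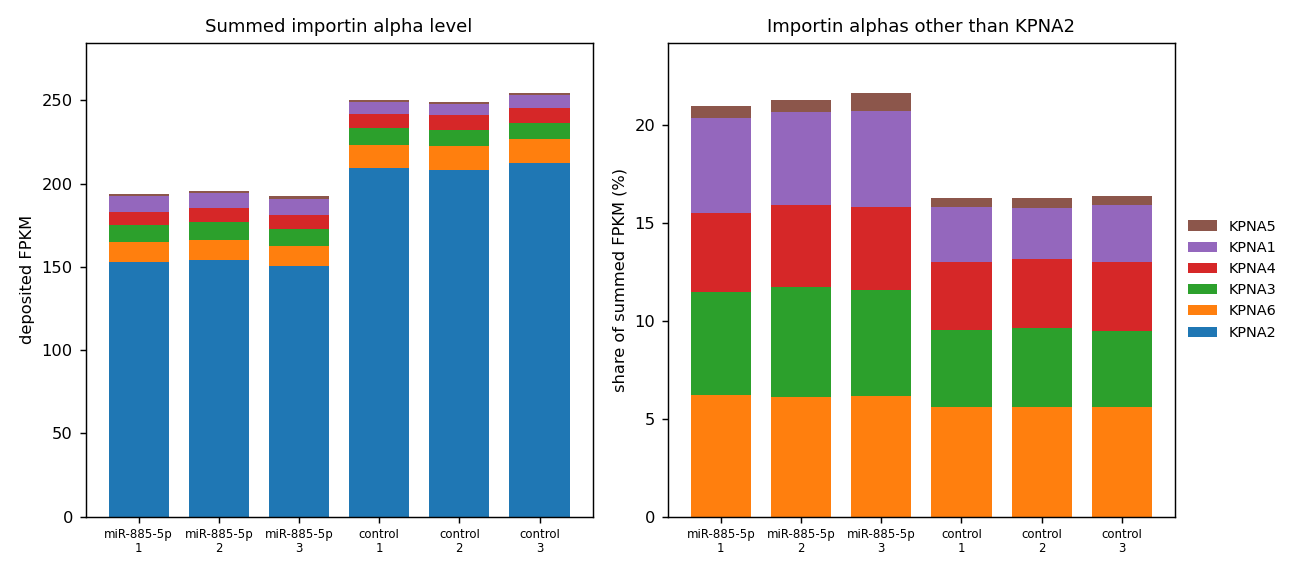
Deposited FPKM of 6 importin alpha genes stacked per library (left, y axis from 0) and the share of the summed FPKM held by the 5 genes other than KPNA2 (right, y axis in %), with the 3 miR-885-5p libraries left of the 3 control libraries. The stacks reach 192 to 196 FPKM with miR-885-5p and 249 to 254 FPKM in controls, and KPNA2 is the largest part of each.

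Among the 10 import receptors of the beta family 5 fell (50%) and 1 rose (10%), against 26.5% and 26.3% of all rows. KPNB1, importin beta 1, the carrier of the importin alpha adaptors (chromosome 17, 47649476 to 47685505), had 684, 683 and 712 CPM in miR-885-5p libraries, against 921, 943 and 911 CPM in control libraries. No miR-885-5p library came near the lowest control. Its log2 fold change was -0.42 (SE 0.04, adjusted p = 1.09e-05), a fall by 25.1%. TNPO2, a transportin, fell by 0.34 and TNPO3, which imports serine/arginine-rich splicing factors, by 0.18, whereas TNPO1, the other transportin for RNA-binding proteins, was at -0.04 (adjusted p = 0.511).

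IPO4, an importer of histones, and IPO9, an importer of histones and actin, fell by 0.17 and 0.14. The call of IPO4 was lost without miR-885-5p library 1 (adjusted p = 0.0865), without control library 2 (adjusted p = 0.0575) and under library-total scaling (adjusted p = 0.0767). That of IPO9 was lost without miR-885-5p library 1 (adjusted p = 0.0620), without control library 1 (adjusted p = 0.0579) and under library-total scaling (adjusted p = 0.0670). By deposited FPKM IPO4 was level, at 57.5 ± 5.96 in miR-885-5p libraries and 57.2 ± 3.22 in control libraries, and it was the called member whose FPKM and count differed in direction.

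IPO7, an importer of ribosomal proteins and signalling factors, had 582, 568 and 595 CPM in miR-885-5p libraries and 534, 560.4 and 521 CPM in control libraries. The groups did not overlap, but miR-885-5p library 2 and control library 2 were close. IPO7 rose by 0.11 (SE 0.04, adjusted p = 0.0370), and this call was lost without miR-885-5p library 1 or 3, without control library 1 or 3 and with the replicate number as a block, where adjusted p ran from 0.0624 to 0.123. IPO5, IPO8 and IPO11 were at 0.05, 0.10 and 0.04 and did not pass the threshold. IPO8, which binds Argonaute proteins as cargo, passed it without control library 3 (adjusted p = 0.0377) and under library-total scaling (adjusted p = 0.0439), as did IPO5 under that scaling (adjusted p = 0.0480).

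Of 7 receptors that export cargo or carry it both ways, 2 fell (28.6%) and 1 rose (14.3%). Among all rows 26.5% fell and 26.3% rose, so the share of falls was near that of all rows. XPO1, or CRM1, the exporter of proteins with leucine-rich signals (chromosome 2, 61477849 to 61538626, minus strand), had 295, 299.7 and 298 CPM in miR-885-5p libraries, against 359, 355 and 382 CPM in control libraries. The miR-885-5p libraries lay within a few CPM of each other and below all controls. XPO1 fell by 0.30 (SE 0.04, adjusted p = 1.53e-04). XPO6, which exports actin with profilin (chromosome 16, 28097979 to 28211920, minus strand), had 125, 135 and 128 CPM in miR-885-5p libraries and 159, 165 and 154 CPM in control libraries. The fall of XPO6 was 0.30 as well (SE 0.04, adjusted p = 2.68e-04), again with no overlap.

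XPO5, which carries precursor microRNAs out of the nucleus, had 99.96, 109 and 102 CPM in miR-885-5p libraries and 111, 106 and 111 CPM in control libraries. The groups overlapped, since miR-885-5p library 2 lay above control library 2, and the log2 fold change was -0.08 (SE 0.04, adjusted p = 0.166). XPOT, the tRNA exporter, had 202, 195 and 194 CPM in miR-885-5p libraries and 183, 176 and 182 CPM in control libraries. All miR-885-5p libraries were above the controls, and XPOT rose by 0.13 (SE 0.04, adjusted p = 0.0151). Its call was lost without miR-885-5p library 1 (adjusted p = 0.0687). XPO7, IPO13, which imports and exports, and XPO4 were at -0.09, -0.02 and 0.07 and did not pass the threshold.

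Per transcript length, by deposited FPKM, KPNA2 was the highest member, with 153 ± 1.68 in miR-885-5p libraries and 210.1 ± 2.11 in control libraries. KPNB1 came next, at 109 ± 5.88 and 137 ± 1.36, followed in controls by IPO7 (88.3 ± 1.10 with miR-885-5p and 78.4 ± 1.95 in controls), NUP62 (60.7 ± 1.66 and 72.5 ± 4.64) and XPO1 (58.9 ± 1.34 and 70.4 ± 3.05). So 4 of these 5 genes fell and IPO7 rose. At the low end stood NUP62CL (0.622 ± 0.0486 with miR-885-5p and 1.10 ± 0.134 in controls), KPNA5 (1.35 ± 0.285 and 1.18 ± 0.0797) and XPO4 (3.37 ± 0.0448 and 3.07 ± 0.0967), each with n = 3 per group.

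Matches to the 5p seed were searched in 1 annotated 3′ UTR per gene, the longest (GENCODE 29, GRCh38), as the 7mer-m8 GTAATGG or, with an A after it, the 8mer GTAATGGA, on the transcript strand. Such a match was found in 7 of 44 members (15.9%) and in 8.01% of 12304 genes with a 3′ UTR. Of these 7 members 6 fell and IPO7 rose, and their median log2 fold change was -0.28. The 37 members without a match held 18 falls and 3 rises, with a median of -0.17. Over all genes, 35.5% of those with a match and 27.2% of those without were lower. With the 6mer TAATGG as the match, 15 members held one. Of the members this added, KPNB1 fell, and KPNA1, KPNA5 and XPOT rose. NUP133, TNPO1, XPO4 and XPO7, also added, did not pass the threshold. Over all genes, 29% of those with the 6mer and 27.3% of those without were lower. The 7 members had a median 3′ UTR length of 5674 bases, against a median of 1389.5 bases over all genes. NUP98, with 1149 bases, lay below both medians. A long UTR can hold more matches of any kind. A match is a description of the letters and not a shown site of action.

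The matches are given below in capitals, inside 30 bases of the UTR on the transcript strand. NUP50 and KPNA6 hold the 8mer, at 45187816 to 45187823 of chromosome 22 (plus strand, base 3161 of a UTR of 3360) and at 32176207 to 32176214 of chromosome 1 (plus strand, base 5313 of a UTR of 5674). NUP93, NUP98, KPNA4, IPO9 and IPO7 hold the 7mer-m8, with starts at 56844833 of chromosome 16, 3675197 of chromosome 11 (minus strand), 160500758 of chromosome 3 (minus strand), 201877031 of chromosome 1 and 9445870 of chromosome 11.
NUP50: cagacacaattGTAATGGAgatgtaaaact
KPNA6: aaggaaagtggGTAATGGAgtcccagccac
NUP93: tttttatttgtGTAATGGgaaataccgtca
NUP98: gggagccccagGTAATGGcatgagatagct
KPNA4: gtacaaatcaaGTAATGGtttgaacacctt
IPO9: ggtaagtaaaaGTAATGGgggaaaggatta
IPO7: tataaaaagatGTAATGGggtggggggcag

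NUP50, the member nucleoporin above 5 CPM with the largest fall, is thus 1 of 2 members with an 8mer. KPNA2, KPNB1, NUP205 and NUP188, the other strong falls, hold no 7mer-m8 or 8mer in that UTR. For the 3p arm, matches to CGCTGCC were found in 1 member, XPO6, which holds 2 of them within a UTR of 559 bases on the minus strand of chromosome 16, and in 5.65% of all genes with a 3′ UTR. Among genes with a 3p match 26.2% were lower, against 27.9% of those without. The XPO6 matches start at 28098409 and 28098375.
XPO6, first match: accgcaagcaaCGCTGCCtgcctctgccgc
XPO6, second match: ccacatcttgcCGCTGCCcagcagagctgg

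Other genes of nuclear transport, outside the naming rule, were taken from 4 lists with 62 genes, all of which had a row. In these lists 32 fell and 8 rose, with a median log2 fold change of -0.15, where 26.5% of all rows fell and 26.3% rose. Of 13 further nucleoporin genes 6 fell and 2, RANBP2 and TMEM33, rose. NDC1, a transmembrane nucleoporin, had 73.8, 71.5 and 76.7 CPM in miR-885-5p libraries and 108, 109.8 and 115 CPM in control libraries, and its log2 fold change was -0.58 (SE 0.04, adjusted p = 4.52e-06). AHCTF1, or ELYS, which seeds pore assembly on chromatin, and GLE1, a cofactor of mRNA release, fell by 0.32 and 0.38. POM121, POM121C, TPR, AAAS and NUPL2 did not pass the threshold.

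Of 12 genes of the Ran cycle and further receptors 7 fell (58.3%, against 26.5% of all rows) and 0 rose by edgeR. At an unadjusted p of 0.05, 1 was higher, SNUPN, which imports capped small nuclear RNPs. RANBP1, a cofactor of Ran-GTP hydrolysis, had 158, 145 and 161 CPM in miR-885-5p libraries and 259, 250.3 and 228 CPM in control libraries. No library of either group reached the range of the other, and RANBP1 fell by 0.67 (SE 0.06, adjusted p = 9.26e-06). RCC1, the exchange factor that loads Ran with GTP on chromatin, fell by 0.61 and CSE1L, which returns importin alpha to the cytoplasm, by 0.35.

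The mRNA export list had 10 of 21 genes lower (47.6%) and 1, MCM3AP, higher (4.76%), against 26.5% and 26.3% of all rows. THOC3, a subunit of the THO complex, had 36.7, 30.6 and 29.3 CPM in miR-885-5p libraries and 69.9, 69.1 and 60.5 CPM in control libraries, and fell by 1.05 (SE 0.09, adjusted p = 9.53e-06). The adaptor ALYREF fell by 0.74 and the helicase DDX39B by 0.33. Among 16 genes of the lamina and envelope 9 fell (56.2%) and 5 rose (31.2%), the latter near the 26.3% of all rows. These 5 were LEMD2, LEMD3, SUN1, TOR1A and TOR1AIP1. LMNB1, lamin B1, had 98.9, 105 and 106 CPM in miR-885-5p libraries and 186, 181 and 194 CPM in control libraries. It fell by 0.85 (SE 0.04, adjusted p = 3.84e-07), and LBR, the lamin B receptor, and TMPO, which encodes lamina-associated polypeptides, fell by 0.62 and 0.51.

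**Figure D5:**
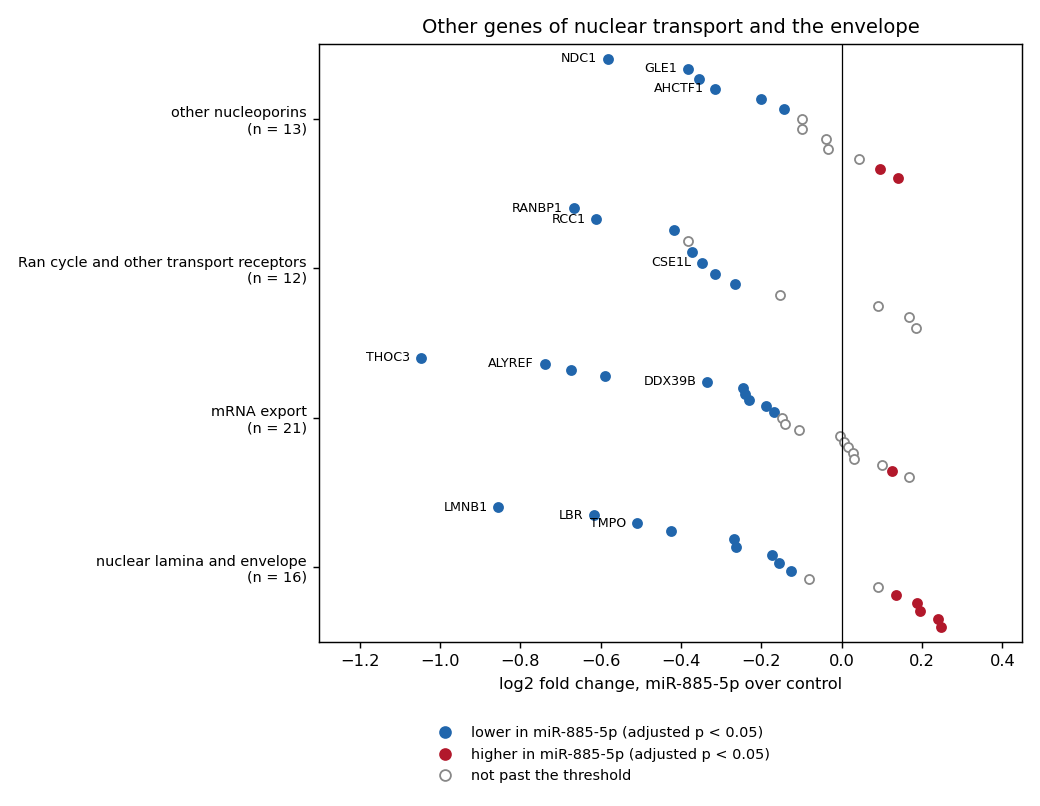
Log2 fold change, miR-885-5p over control (x axis), of 62 genes in 4 lists outside the naming rule, ordered within each list; blue points are lower and red points higher at an adjusted p under 0.05, open points are not past it, and the 3 genes with the smallest adjusted p per list are named. THOC3 at -1.05 and LMNB1 at -0.85 lie furthest left.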

How the data were processed

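Messenger RNA of JHH-4 cells was sequenced in 3 miR-885-5p and 3 control libraries, grouped and numbered by sample titles; per the labels, RNA came from a column kit and libraries from a NEBNext Ultra kit for Illumina. Build GRCh38, DESeq2 1.38.3, StringTie 2.2.1 and HISAT2 2.0.4 appear in the submitters' processing notes without a role, and no source used here gives the counting tool. The deposited table holds, per the file headers, raw counts per gene and library, FPKM values by the authors, and the authors' p-value and log2 fold change, whose test is not named.

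Tests on the counts used edgeR 4.0.16 under R 4.3.3 (TMM scaling, filterByExpr, which removed 0 rows, quasi-likelihood F test, Benjamini-Hochberg over 14034 rows, adjusted p under 0.05). Levels are TMM-scaled CPM, mean ± SD over 3 libraries; log2 fold changes set miR-885-5p over control. FPKM served as a description only. Alternatives were DESeq2 1.42.0, limma-voom (limma 3.58.1), other scalings and filters, named rows alone, a replicate block, stricter thresholds and leaving out each library; fits were checked on simulated counts. Members, role classes and lists were chosen with earlier results of these data known. In each class the called members with the largest rise and fall, plus KPNB1, KPNA2, XPO1 and XPO5, were given per library; NUP62 and KPNA1 were added after their values were seen, as were the figure's panels. In each further list the 3 genes with the smallest adjusted p were named, with others added after.

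Positions and UTRs come from GENCODE 29, in which all 44 members were found. No source used here says whether the libraries keep strand. Exons of 18 members overlap a gene on the opposite strand, among them NUP88, NUP62, XPO5 and KPNB1, and those of 8 overlap one on the same strand, among them NUP62 and NUP98. For 9 members, KPNA2 and IPO7 included, pseudogenes are annotated, so such counts are uncertain. Of the 14 members with none of these features 9 fell (64.3%) and 1 rose (7.14%), against 26.5% and 26.3% of all rows.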

Additional observations from a re-analysis of the deposited data

How the results depend on the processing

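Of 28 called members 22 kept their call and direction under every tool, scaling, filter, block and left-out library that tested them, 20 of them lower and 2 higher; no called member changed sign. Leaving out 1 library gave 21 to 24 members lower, 2 to 4 higher and medians from -0.187 to -0.167; the 2 higher were found without miR-885-5p library 1, and -0.187 without control library 3. Library-total scaling gave 21 lower and 6 higher, the most rises of any setting. The median was -0.124 under that scaling, -0.159 under upper-quartile scaling and -0.155 among the 43 members at 5 CPM in 3 libraries, against -0.172 in the reported fit. Library-total scaling shifted all rows by 0.0481 on the log2 scale. An adjusted p under 0.01 left 20 members lower and 2 higher, and the test against a 1.2-fold change 6 and 1. With 8mers alone 2 members held a seed match, and with 6mers 15. With the replicate number as a block 23 members were lower and 3 higher. Same-numbered libraries did not deviate together (r from -0.184 to -0.0575). With 3 libraries per group these values cannot show that the numbers mark no pairs. At this depth members near 1 CPM, such as NUP62CL, rest on under 100 reads per library, and small changes of such genes were not detectable.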

Other observations

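At p under 0.05 the authors' deposited table had 25 members below control and 4 above it, and no member called here had the opposite sign there. The members' log2 fold changes in the authors' deposited table differed from those of the edgeR fit by at most 0.00208. By deposited FPKM, 4 members had means whose direction differed from that of the counts, namely NUP37, NUP107, IPO4 and IPO13; NUP37, for example, had 22.5 ± 4.93 FPKM in miR-885-5p libraries and 19.9 ± 3.57 FPKM in control libraries (SD, n = 3 each).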
